A study of Homo sapiens with 8 samples.

Results

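The collagen genes form a large human gene family, and their promoters were examined here for the histone mark H3K4me3. Every protein-coding gene whose symbol reads COL, a number, A and a number was taken, with the type I collagen genes left out, which gave 42 genes of 20033 protein-coding genes. Collagens are extracellular matrix proteins built from 3 chains wound into a triple helix. Fibrillar collagens assemble into the fibrils that give bone, skin and cartilage their tensile strength, network collagens such as type IV form the sheets of basement membranes, and FACIT collagens sit on the surface of fibrils. H3K4me3 is deposited at the promoters of active or poised genes, most strongly at promoters rich in CpG dinucleotides.

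ChIP-seq for H3K4me3 was performed in U2OS, a human osteosarcoma cell line, in 3 WT clones and 3 clones with a knockout of ZBTB48 (ZBTB48 KO), a zinc-finger protein that binds telomeric repeats and a set of promoters. All clones, WT and KO, had received 250 U/ml IFNγ for 24 h, so no untreated state was compared. Each library came from a different clone, WT_3, WT_4 and WT_5 for WT replicates 1, 2 and 3 and KO_C3, KO_C5 and KO_E2 for KO replicates 1, 2 and 3. A p-value therefore measures the spread between clones of 1 cell line.

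The 6 lists held 21712 to 26370 broad peaks. WT replicates 1 and 2 stood apart from the rest: their peaks had a median fold enrichment over local background of 13.4 and 14.0 and a median width of 2297 and 2353 bp, against 4.19 to 4.65 and 1275 to 1487 bp in WT replicate 3 and the 3 KO libraries. The 2 inputs carry in their labels the clone numbers of these same WT replicates, whether they served as the background of any list is not given in the sources used here, and their part in the higher enrichment was not tested. WT to KO differences are therefore also given with WT replicate 3 as the only WT library. The promoter of ZBTB48 itself was called in all 6 libraries, with 1550 ± 307 bp under peaks in the KO clones and 2771 ± 827 bp in the WT clones (SD over 3 each). WT replicate 3, with 1821 bp, lay below KO replicate 1, with 1855 bp, so the genotypes overlapped (exact permutation p = 0.2). These values do not test the knockout because the mark is not the protein. Of 6 mesenchymal marker genes, 5 were called in all 6 libraries (TWIST1 in none), as were all 3 chondrocyte marker genes. Of 4 epithelial markers 2 were called in all 6 (CDH1 in none, and ESRP1 in 5), whereas 0 of 3 endothelial and 0 of 4 haematopoietic markers were called in any library. Of all protein-coding promoters, 65.1% were called in all 6 libraries and 30.3% in none. The labelled cell line thus carried the mark at most of the mesenchymal genes and also at some epithelial ones. These short lists were not tested against the shares of all promoters.

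Sequence is shown for the promoters on which the results turn. These are stretches between the head-to-head type IV genes, and both promoters of COL18A1, which differed in how many libraries called them. All were read from GRCh38 5′ to 3′, clear of annotated exons, with every CpG dinucleotide in capitals. The COL4A1-COL4A2 interval (chr13:110307158-110307257, plus strand, 100 bases, 14 CpGs) begins next to the 5′ end of COL4A1:
COL4A1-COL4A2: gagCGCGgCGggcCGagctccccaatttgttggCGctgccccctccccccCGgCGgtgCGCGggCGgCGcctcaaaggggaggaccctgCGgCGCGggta
A further 5′ end of COL4A4 is annotated at 227164453, nearer to COL4A3 than the one used below. The COL4A4-COL4A3 interval (chr2:227164454-227164623, plus strand, 170 bases, 12 CpGs) lies between that end and the 5′ end of COL4A3:
COL4A4-COL4A3: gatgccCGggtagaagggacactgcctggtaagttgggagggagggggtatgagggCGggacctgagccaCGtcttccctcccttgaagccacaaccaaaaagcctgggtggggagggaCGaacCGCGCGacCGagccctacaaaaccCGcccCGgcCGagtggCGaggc
The COL4A6-COL4A5 stretch (chrX:108439588-108439837, plus strand, 250 bases, 8 CpGs) ends next to the 5′ end of COL4A5:
COL4A6-COL4A5: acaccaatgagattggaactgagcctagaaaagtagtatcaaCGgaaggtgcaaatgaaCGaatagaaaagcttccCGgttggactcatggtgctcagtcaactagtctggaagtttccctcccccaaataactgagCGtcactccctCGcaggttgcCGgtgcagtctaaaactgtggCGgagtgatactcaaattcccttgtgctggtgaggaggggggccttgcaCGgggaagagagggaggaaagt
The upstream promoter of COL18A1 (chr21:45405015-45405164, plus strand, 150 bases, 22 CpGs) and its downstream promoter (chr21:45455372-45455521, plus strand, 150 bases, 6 CpGs) read:
COL18A1: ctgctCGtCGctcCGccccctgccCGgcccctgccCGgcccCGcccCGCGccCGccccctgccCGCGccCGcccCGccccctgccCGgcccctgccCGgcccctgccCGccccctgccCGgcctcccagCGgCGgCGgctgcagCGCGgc
COL18A1 downstream promoter: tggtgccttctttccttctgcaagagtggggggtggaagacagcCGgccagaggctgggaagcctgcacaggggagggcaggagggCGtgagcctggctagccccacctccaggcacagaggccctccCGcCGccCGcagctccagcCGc

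A promoter counted as called where any listed peak reached within 1 kb, on either side, of the gene's 5′ end, taken from its MANE Select (agreed reference) transcript. The level given for a promoter is its covered length, the base pairs under peaks within 3 kb on either side, which describes how far the mark spread and not how strong it was. A promoter that was not called may carry a mark under the threshold of its list, and the number of reads behind a peak is unknown here.

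Collagen promoters were split between marked and unmarked genes. Of the 42 genes, 22 (52.4%) were called in all 6 libraries, where 65.1% of all protein-coding promoters were. A further 15 (35.7%) were called in none, against 30.3% of all promoters, and 5 (11.9%) were called in 1 to 5 libraries, against 4.59%. The number of collagen promoters called was 25, 24 and 25 in WT replicates 1, 2 and 3 and 24, 23 and 23 in KO replicates 1, 2 and 3. The genotypes met at 24 promoters, and the KO clones averaged 23.3 ± 0.577 against 24.7 ± 0.577 for the WT clones (SD over 3 each), while 66.9% and 67.5% of all promoters were called on average. No collagen promoter was called in every WT library and no KO library, and none in every KO and no WT library. Such cases were not counted over all promoters, where they lie within the 4.59% called in 1 to 5 libraries.

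**Figure D1:**
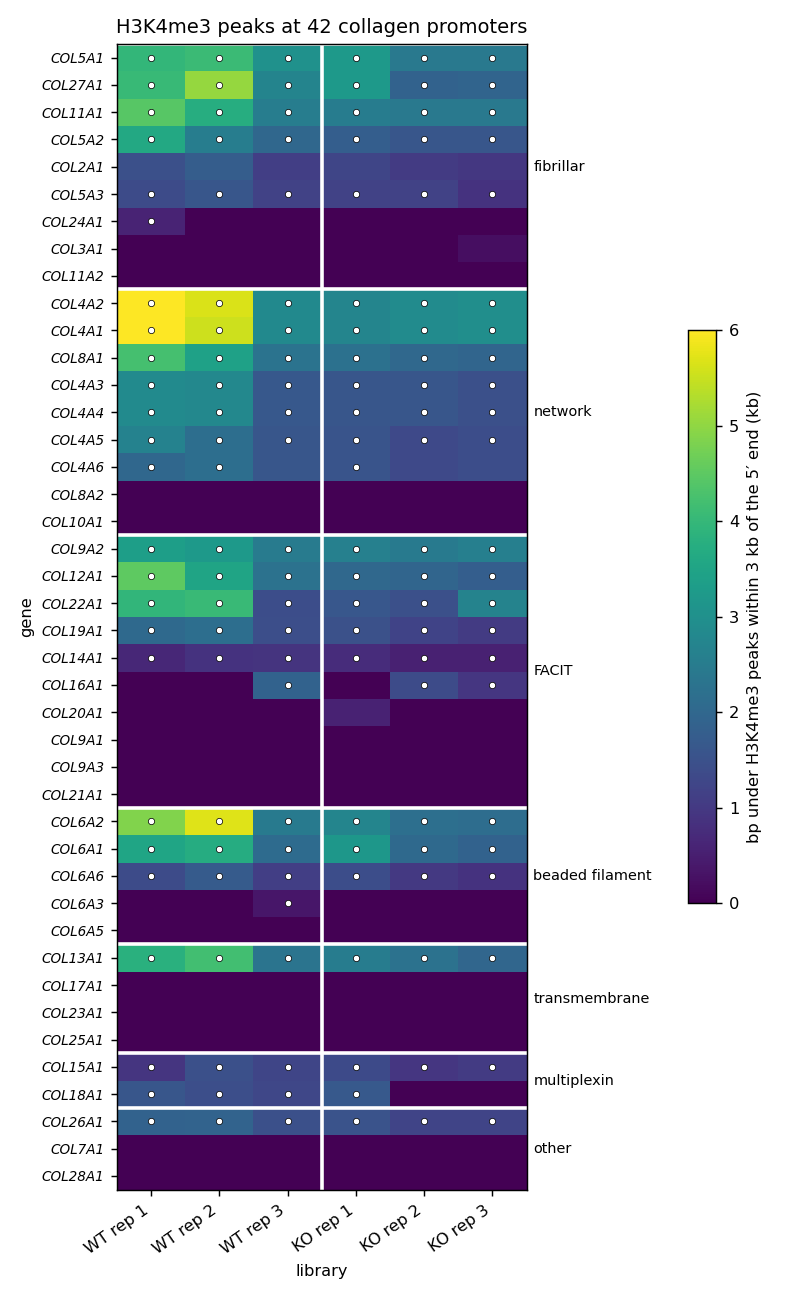
Base pairs under H3K4me3 peaks within 3 kb of the 5′ end (colour, in kb) for the 42 collagen genes (rows, by structural class) in the 3 WT and 3 KO libraries (columns); a white dot marks a peak within 1 kb. The 22 genes called in all 6 libraries and the 15 called in none occur in most classes, and the broadest coverage lies in WT replicates 1 and 2.

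The fibrillar collagens were marked at 5 of 9 promoters in all 6 libraries. These were COL5A1, COL5A2 and COL5A3, the chains of type V collagen, which nucleates type I fibrils, COL11A1 of type XI and COL27A1. COL2A1, the main collagen of cartilage, COL3A1, which is found with type I collagen in skin and vessels, and COL11A2 were called in none. COL24A1 was called in WT replicate 1 alone, with 599 bp under a peak there and 0 bp in the other 5 libraries.

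The network collagens were marked in all 6 libraries at 6 of 9 promoters, namely COL4A1 to COL4A5 and COL8A1. COL8A2, the partner chain of COL8A1 in the membrane under the corneal endothelium, and COL10A1, made by hypertrophic chondrocytes, were called in none. COL4A6 was called in 3 libraries and is described with its pair.

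Of the FACIT collagens, 5 of 10 were called in all 6 libraries: COL9A2, COL12A1, COL14A1, COL19A1 and COL22A1. Type IX collagen, which decorates cartilage fibrils, is made from 3 genes, and only COL9A2 was called, with COL9A1 and COL9A3 called in none. COL20A1 and COL21A1 were also called in none, and COL16A1 in 3 libraries.

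Type VI collagen forms beaded filaments around cells from chains that include α1, α2 and α3. COL6A1, COL6A2 and COL6A6 were called in all 6 libraries, so 3 of 5 type VI promoters were. COL6A5 was called in none. COL6A3, the gene of the α3 chain, had only a 359 bp peak in WT replicate 3, from 590 to 948 bp downstream of its 5′ end.

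Among the transmembrane collagens COL13A1 was called in all 6 libraries, and COL17A1, the hemidesmosome collagen of epithelia, COL23A1 and COL25A1 in none. Of the multiplexins, which are basement membrane collagens carrying glycosaminoglycan chains, COL15A1 was called in all 6 and COL18A1 in 4. Of the remaining genes COL26A1 was called in all 6. COL7A1, the anchoring fibril collagen under the epidermis, and COL28A1 were called in none. The shares called in all 6 libraries were 55.6% of fibrillar, 66.7% of network and 5 of 10 FACIT genes. These are counts within small classes whose members are not replicates and were not tested against each other. In the network class COL4A1 and COL4A2 share a peak, as do COL4A3 and COL4A4.

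The type IV genes lie head to head in 3 pairs, with the genes of each pair transcribed away from each other. COL4A1 and COL4A2, whose chains make the network found in most basement membranes, start 127 bp apart on chromosome 13, at 110307157 and 110307284. COL4A4 and COL4A3 start 419 bp apart on chromosome 2, at 227164205 and 227164624. COL4A6 and COL4A5 start 1416 bp apart on chromosome X, at 108438422 and 108439838. The chains of the latter pairs serve the basement membranes of kidney, eye, ear and smooth muscle.

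In the COL4A1-COL4A2 region, from 3 kb outside one 5′ end to 3 kb outside the other, 6128, 5663 and 2842 bp lay under peaks in WT replicates 1, 2 and 3, and 2741, 2895 and 2957 bp in KO replicates 1, 2 and 3. WT replicates 1 and 2 were high, and WT replicate 3 lay within the range of the KO libraries, so the genotypes overlapped. The KO clones averaged 2864 ± 111 bp and the WT clones 4878 ± 1778 bp (SD over 3 each; exact permutation test, two-sided p = 0.3). With 3 libraries against 3 no p can go below 0.1. With WT replicate 3 alone, the WT to KO difference was -22.3 bp.

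A single peak covered both 5′ ends of COL4A1 and COL4A2 in all 6 libraries. It was 13297 bp wide in WT replicate 1, 8115 bp in WT replicate 2 and 2741 to 2957 bp in the other 4, at the 93.7 to 99.9 percentile of width in every list. Within 3 kb it reached farther on the side of COL4A2 than on that of COL4A1 in WT replicate 3 and the KO libraries, with 1800 to 2042 bp against 789 to 969 bp. The fold enrichment of this peak ranked at the 78.1 and 78.0 percentile of the lists of WT replicates 1 and 2, and at the 6.83 to 14.0 percentile of the other 4 lists. By enrichment, which is averaged over the whole width of a broad peak, this promoter was thus in the upper part of 2 lists and near the bottom of 4.

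At COL4A4-COL4A3 the covered length was 2864, 2799 and 1656 bp in the WT replicates and 1617, 1611 and 1457 bp in the KO replicates. Every WT library lay above every KO library, by 39 bp between the closest. The KO clones averaged 1562 ± 90.7 bp and the WT clones 2440 ± 679 bp (SD over 3 each), a difference of 878 bp (exact permutation p = 0.1, the smallest possible). This shrank to 94.3 bp with WT replicate 3 alone and turned to -50.7 bp when each library was scaled to its median over promoters called in all 6. As at COL4A1-COL4A2, 1 peak covered both 5′ ends in all 6 libraries, and here its fold enrichment ranked alike in all lists, at the 72.1 to 80.1 percentile.

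The COL4A6-COL4A5 region held 2669, 2176 and 1605 bp under peaks in the WT replicates and 1558, 1324 and 1428 bp in the KO replicates. Again every WT library lay above every KO library, with 47 bp between the closest. The difference of 713 bp between the KO mean of 1437 ± 117 bp and the WT mean of 2150 ± 532 bp (SD over 3 clones each) had an exact permutation p of 0.1. It was 168 bp with WT replicate 3 alone, and it too reversed after scaling, to -101 bp.

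Unlike the other pairs, COL4A6-COL4A5 was marked on 1 side. The 5′ end of COL4A5 was under a peak in all 6 libraries, and that of the MANE Select transcript of COL4A6 in none, with 0 bp on the COL4A6 side of that end in any library. The peak reached 222 to 675 bp from COL4A5 towards COL4A6. An upstream-most 5′ end annotated for COL4A6 lies 341 bp from COL4A5, and 1 peak covered it together with the 5′ end of COL4A5 in WT replicates 1 and 2 and KO replicate 1. COL4A6 was called within 1 kb in those same 3 libraries, so the call turned on the edge of the COL4A5 peak. Its covered length was 2009, 2176 and 1605 bp in the WT replicates and 1558, 1324 and 1428 bp in the KO replicates, all of it bases shared with COL4A5.

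**Figure D2:**
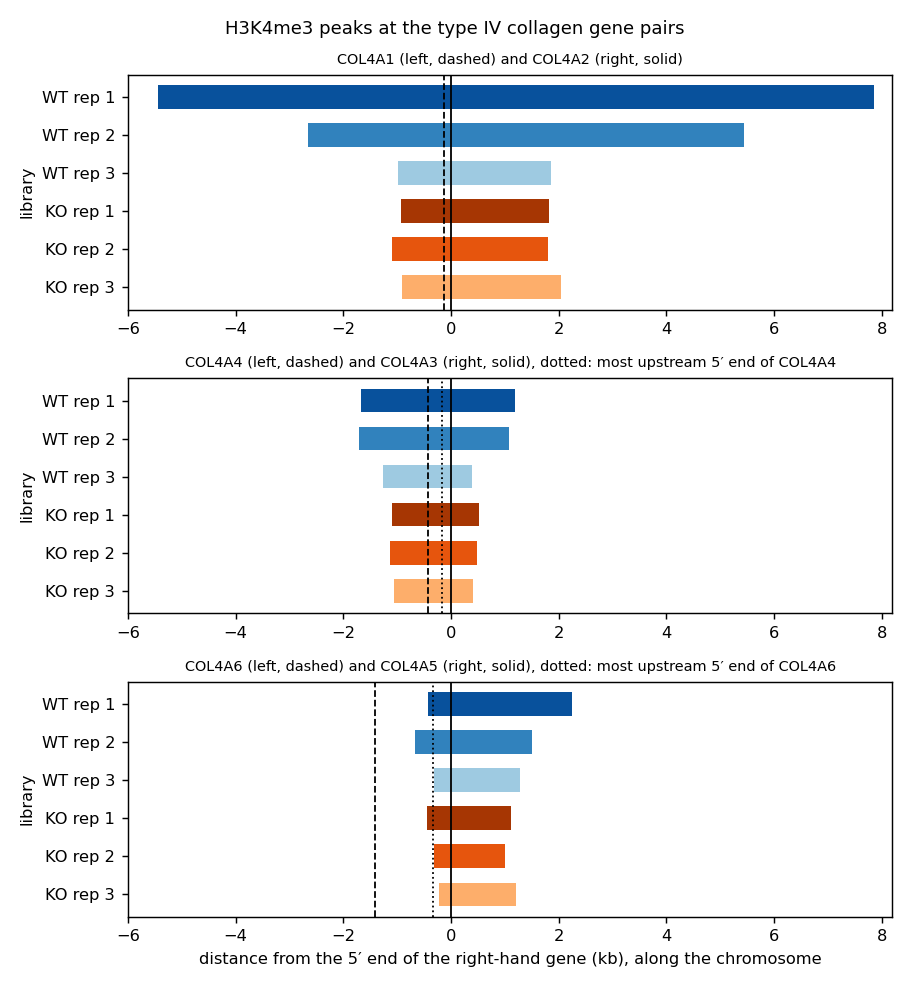
Extent of the H3K4me3 peaks at the 3 head-to-head type IV pairs in each of the 6 libraries (rows); the horizontal axis is the distance in kb from the 5′ end of the right-hand gene, and vertical lines mark 5′ ends. One bar spans both genes at COL4A1-COL4A2 and COL4A4-COL4A3, while at COL4A6-COL4A5 the bars cover the COL4A5 end and stop short of the dashed COL4A6 end.

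Covered length was compared between the genotypes at each promoter. Over all 42 genes the median was 1423, 1665 and 1265 bp in the WT replicates and 1392, 1115 and 963 bp in the KO replicates. KO replicate 1 lay above WT replicate 3, so the genotypes overlapped, the KO clones averaging 1156 ± 217 bp and the WT clones 1451 ± 201 bp (SD over 3 each). The difference of 294 bp fell to 108 bp with WT replicate 3 alone. Over all protein-coding promoters the same medians averaged 2288 bp in WT and 1459 bp in KO. That difference of 829 bp fell to 190 bp with WT replicate 3 alone.

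At the 22 promoters called in all 6 libraries the mean was higher in WT at every gene, though at only 7 of them once each library was scaled to its median, and KO had a median of 0.659 of the WT mean, beside 0.651 over all promoters called in all 6. In this ratio the collagens lay close to all promoters called in all 6, and whether it reflects a change in KO was not tested. With WT replicate 3 as the only WT library, WT was above the KO mean at 17 of the 22 and below it at 5.

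Every WT library lay above every KO library at 8 of the 30 collagen promoters that had any coverage (26.7%), where 50.8% of all such promoters did. The 30 are the 27 called in any library, COL2A1, COL3A1 with 231 bp in KO replicate 3 and COL20A1 with 566 bp in KO replicate 1. The 8 were the network genes COL4A3, COL4A4, COL4A5, COL4A6 and COL8A1, the fibrillar genes COL5A2 and COL11A1, and the FACIT gene COL12A1. COL4A3 and COL4A4 hold the same covered bases, and those of COL4A6 are shared with COL4A5, so the 8 are not 8 separate regions. No collagen promoter lay the other way, beside 0.111% of all promoters. After scaling, 0 collagen promoters lay above in WT and 2, COL2A1 and COL9A2, lay above in KO, with 5.53% and 12.9% of all promoters. The count rested on single libraries, since it was 21 without WT replicate 3 (90.9% of all promoters) and 19 without KO replicate 1 (80.2%). WT replicate 3 alone lay above every KO library at 8 of the 22 collagen promoters called in all 6 (36.4%), against 55.8% of all promoters called in all 6. By the exact permutation test with Benjamini-Hochberg adjustment over 14422 promoters, 0 passed an adjusted p of 0.05 and 0 had an unadjusted p under 0.05, which the design does not allow; 7346 promoters reached the smallest p of 0.1, and the smallest adjusted p was 0.196.

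Outside type IV, the largest differences stood at genes with broad peaks in WT replicates 1 and 2. COL6A2, which codes for the α2 chain of type VI collagen, had 4865, 5703 and 2446 bp in the WT replicates and 2731, 2197 and 2153 bp in the KO replicates. Its WT replicate 3 lay below KO replicate 1, and the difference of 1978 bp (exact permutation p = 0.2) was 85.7 bp with WT replicate 3 alone. COL27A1 had 4044, 5060 and 2713 bp against 3228, 1896 and 1939 bp, again with KO replicate 1 above WT replicate 3 (difference 1585 bp, exact permutation p = 0.2, and 359 bp with WT replicate 3 alone).

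COL12A1, a FACIT of tendon and bone surfaces, had 4508, 3500 and 2260 bp in the WT replicates and 2037, 1952 and 1787 bp in the KO replicates. All WT libraries were above all KO libraries, WT replicate 3 by 223 bp over the highest. Its difference of 1497 bp (exact permutation p = 0.1) was 335 bp with WT replicate 3 alone and kept its sign after scaling, at 264 bp. COL8A1 had 4240, 3445 and 2294 bp against 2247, 2029 and 1958 bp, a difference of 1248 bp (exact permutation p = 0.1) that shrank to 216 bp with WT replicate 3 alone and to 4.43 bp after scaling.

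COL22A1, a collagen of tissue junctions such as that of muscle and tendon, had 3961, 4059 and 1422 bp in the WT replicates and 1624, 1463 and 2675 bp in the KO replicates. Here WT replicate 3 was the lowest of all 6 and KO replicate 3 stood above the other KO libraries by more than 1 kb, so the genotypes overlapped. The difference of 1227 bp (exact permutation p = 0.4) reversed to -499 bp with WT replicate 3 alone and to -90.8 bp after scaling. COL13A1, a transmembrane collagen of the neuromuscular junction, had 3800, 4182 and 2299 bp against 2519, 2257 and 1989 bp. Its genotypes overlapped through KO replicate 1, and its difference of 1172 bp (exact permutation p = 0.2) was 44 bp with WT replicate 3 alone and reversed to -144 bp after scaling.

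The smallest differences stood at COL15A1, COL14A1 and COL5A3. COL15A1 had 934, 1467 and 1254 bp in the WT replicates and 1359, 955 and 1045 bp in the KO replicates, with WT replicate 1 the lowest of all 6 (difference 98.7 bp, exact permutation p = 0.8). COL5A3 had 1365, 1599 and 1185 bp against 1185, 1188 and 885 bp, where WT replicate 3 lay within the KO range (difference 297 bp, exact permutation p = 0.3). COL5A1 was among the 4 most widely covered collagen promoters, after COL4A2, COL4A1 and COL6A2. It had 3973, 4101 and 3024 bp in the WT replicates and 3225, 2437 and 2416 bp in the KO replicates, overlapping through KO replicate 1 (difference 1007 bp, exact permutation p = 0.2). The differences at COL15A1, COL14A1, COL5A3 and COL5A1 all reversed after scaling, to between -399 and -88.0 bp. With WT replicate 3 alone they were 134 bp at COL15A1, 276 bp at COL14A1, 99 bp at COL5A3 and 331 bp at COL5A1.

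**Figure D3:**
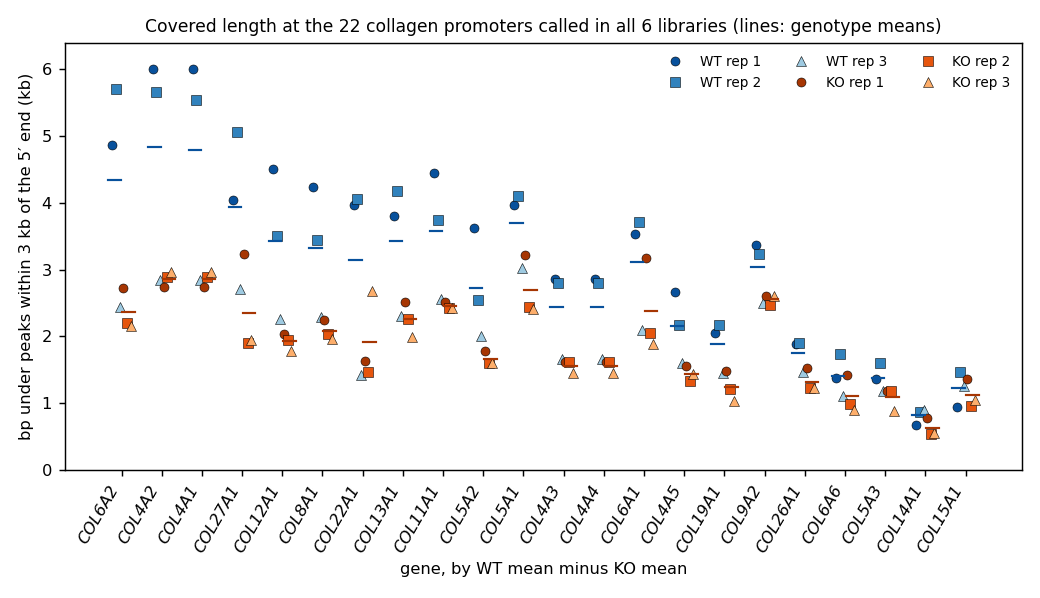
Base pairs under peaks within 3 kb of the 5′ end (vertical axis, kb) for the 22 collagen promoters called in all 6 libraries (horizontal axis, by WT mean minus KO mean); points are libraries and short lines are genotype means. WT replicates 1 and 2 (dark blue) carry most of the WT to KO distance, and WT replicate 3 (light blue) lies near the KO libraries.

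COL16A1 and COL18A1 were each called in several libraries and missing from several. COL16A1, a FACIT on chromosome 1 with its 5′ end at 31704017, had 1896 bp in WT replicate 3, 1370 bp in KO replicate 2 and 956 bp in KO replicate 3, and 0 bp in WT replicates 1 and 2 and KO replicate 1. Where it was called, the peak lay over the 5′ end. Both genotypes held called and uncalled clones (exact permutation p = 1), and the sign of its WT to KO difference of -143 bp turned with the library left out. It was 1121 bp with WT replicate 3 alone.

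COL18A1, whose C-terminal fragment is endostatin, lies on chromosome 21 with the 5′ end of its MANE Select transcript at 45405165. That promoter had 1605, 1433 and 1275 bp in the WT replicates, 1675 bp in KO replicate 1 and 0 bp in KO replicates 2 and 3. All 3 WT libraries and 1 of 3 KO libraries were thus called, and the highest value of all was in KO (difference 879 bp, exact permutation p = 0.4, and 717 bp with WT replicate 3 alone). Those peaks ranked at the 18.0 to 39.8 percentile of fold enrichment in their lists.

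A second promoter of COL18A1 lies 50357 bp downstream, in intron 2 of the MANE Select transcript, where shorter protein-coding transcripts start. It was called in all 6 libraries, with 1710, 3505 and 1973 bp in the WT replicates and 2395, 1383 and 1205 bp in the KO replicates. KO replicates 2 and 3, which lacked the upstream peak, had the lowest values here too, while KO replicate 1 lay among the WT libraries. KO replicates 2 and 3 also had the shortest medians over all promoters called in all 6 libraries, 1785 and 1685 bp. The rest had 1954 to 3363 bp. Whether the low values at this promoter go beyond that was not tested. Of the sequences shown above, the upstream promoter held 22 CpGs and the downstream one 6, so the promoter with fewer CpGs was the one called in every library.

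In 18 of the 22 collagen promoters called in all 6 libraries (81.8%) the 5′ end itself was under a peak in all 6, against 94.3% of all promoters called in all 6. The other 4 were COL6A1 (5 libraries), COL26A1 (3), COL19A1 (2) and COL14A1 (0). These genes and COL2A1 are singled out for the position of their peaks, after their values were seen, except COL14A1.

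COL14A1, a FACIT of tendon on chromosome 8, had its peak upstream in every library, within -1698 to -734 bp of its 5′ end. It had 677, 870 and 899 bp in the WT replicates and 772, 542 and 554 bp in the KO replicates, which overlapped (difference 193 bp, exact permutation p = 0.2). This narrow peak ranked at the 27.3 and 29.4 percentile of fold enrichment in WT replicates 1 and 2 and at the 84.9 to 95.6 percentile in the other 4 lists, the reverse of COL4A1-COL4A2. Of the 22 genes, 13 ranked lower in all of the other 4 lists than in WT replicates 1 and 2, and 7 ranked higher. COL4A1 and COL4A2 share a peak in this count, as do COL4A3 and COL4A4. The same count was not made over all promoters, so it cannot be called particular to collagen genes.

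COL19A1 starts 60 bp from a 5′ end annotated for LMBRD1, the gene of a lysosomal vitamin B12 transporter. Any LMBRD1 transcript was counted there, so that end need not be its MANE Select one. The COL19A1 peak ran into COL19A1 itself. COL19A1 had 2046, 2164 and 1446 bp in the WT replicates. It had 1487, 1208 and 1034 bp in the KO replicates, with KO replicate 1 above WT replicate 3. Its difference of 642 bp (exact permutation p = 0.2) was 203 bp with WT replicate 3 alone and -49.0 bp after scaling.

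COL2A1 was called within 1 kb in no library and yet was covered within 3 kb in all 6, as were 0.854% of all promoters. Its peaks lay in intron 1, between 1224 and 4240 bp downstream of the 5′ end at 48004476 on chromosome 12, and none touched that end. The covered length was 1462, 1777 and 1104 bp in the WT replicates and 1246, 1041 and 970 bp in the KO replicates, with KO replicate 1 above WT replicate 3 (difference 362 bp, exact permutation p = 0.2, and 18.3 bp with WT replicate 3 alone). This was the 1 collagen gene of that kind. The chondrocyte genes SOX9, ACAN and MATN3 were called in all 6 libraries.

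**Figure D4:**
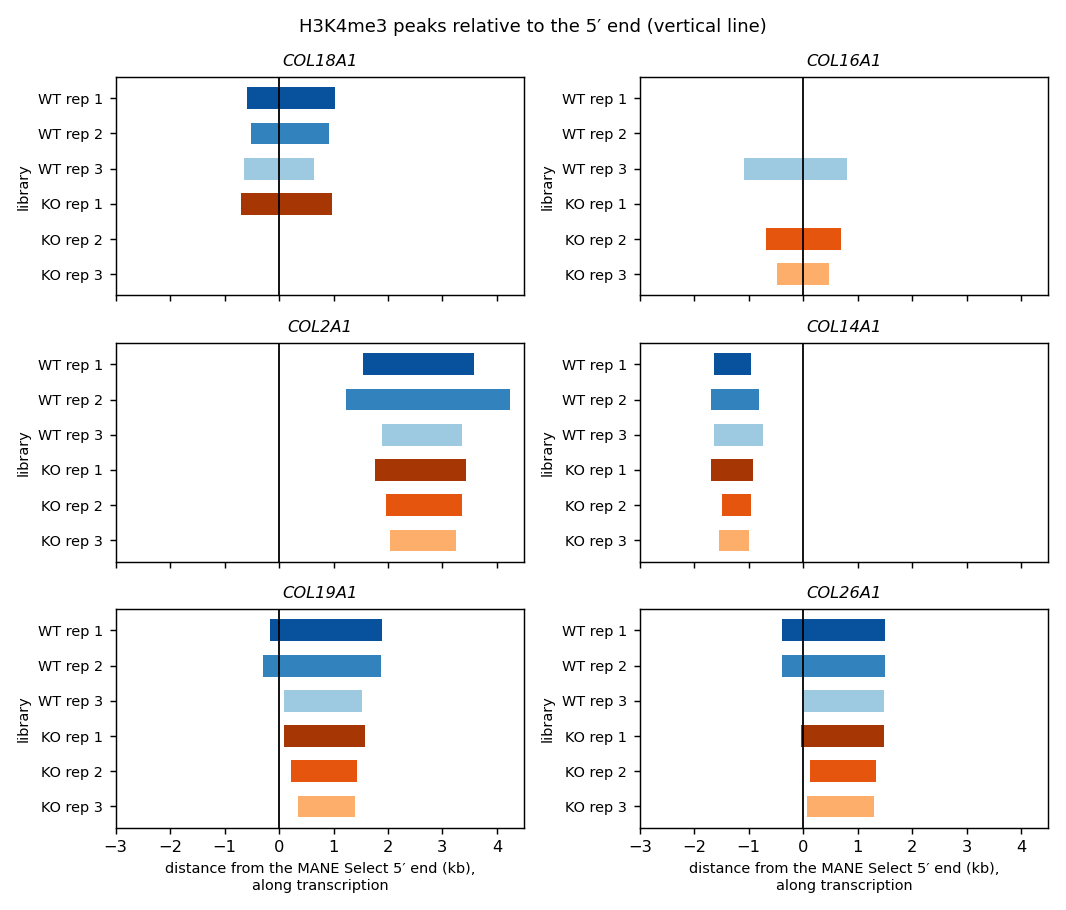
Extent of the H3K4me3 peaks in each library (rows) relative to the MANE Select 5′ end (vertical line) of 6 collagen genes; the horizontal axis is distance in kb along transcription. COL18A1 lacks peaks in KO replicates 2 and 3, COL16A1 has peaks in 3 libraries, the COL2A1 peaks begin downstream and the COL14A1 peaks end upstream of the 5′ end.

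Peaks that touched the collagen genes beyond 3 kb of the 5′ end fell into 51 regions in 21 genes. Of these, 6 were called in all 6 libraries. They were the downstream promoter of COL18A1 and regions in COL5A2, at -24997 to -22810 bp from the MANE Select 5′ end, in COL11A2 over exon 66 of 66, in intron 2 of COL15A1, over exon 37 of COL19A1 and in intron 25 of COL28A1. The COL11A2 region lay mostly outside the gene, with 412 bp inside it and 2080 bp beyond its 3′ end. COL28A1 was thus marked inside the gene and not at the 5′ end. Of the 21 regions called in a single library, 13 (61.9%) were in KO replicate 1, which had the longest list. It had 33.3% of the 5962 single-library regions of the genome. Those 5962 were 19.1% of all 31195 regions, which include promoter regions, whereas the 51 leave out those at the collagen 5′ ends. The share called in all 6 libraries is not given over all regions.

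CpG content was set beside the calls as a description, and no difference between the collagen promoters and all promoters was tested. A promoter was named CpG-rich when the 1001 bp around the 5′ end had a CpG observed-over-expected ratio of at least 0.6 and at least 55% G and C. Of the 42 collagen promoters, 21 were CpG-rich, beside 59.9% of all promoters. Of the CpG-rich collagen promoters 66.7% were called in all 6 libraries, beside 88.9% of all CpG-rich promoters, and 23.8% were called in none, beside 8.48%. Of the CpG-poor ones 38.1% were called in all 6, beside 29.5%.

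The CpG-rich collagen promoters called in none were COL2A1, COL8A2, COL9A3, COL23A1 and COL25A1. COL23A1, COL9A3 and COL25A1 had ratios of 0.891, 0.890 and 0.883, the highest of all 42 genes, and 0 bp under peaks in every library. Among the 22 genes called in all 6 libraries, COL5A2 and COL22A1 had the lowest ratios, 0.360 and 0.441. The 6 lowest ratios of all 42 genes, 0.0793 to 0.292, were those of COL28A1, COL17A1, COL20A1, COL9A1, COL10A1 and COL3A1, all called in none. Across the 42 genes the ratio and the mean covered length had Pearson's r of 0.376 and Spearman's rho of 0.280, beside 0.675 and 0.626 across all 20033 promoters. These are descriptions across genes that share libraries, and genes are not independent replicates.

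**Figure D5:**
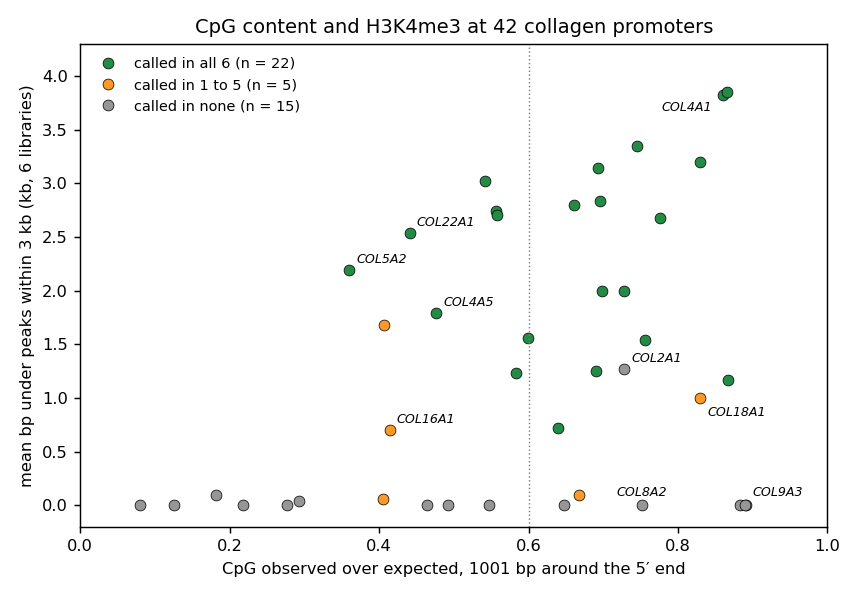
CpG observed-over-expected ratio in 1001 bp around the 5′ end (horizontal axis) against the mean base pairs under peaks within 3 kb over the 6 libraries (vertical axis, kb) for the 42 collagen genes, coloured by the number of libraries that called them. The dotted line is the ratio of 0.6, and unmarked genes (grey) are found on both sides of it.

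Short motifs were counted on both strands of the 300 bases from 250 before to 50 after the 5′ end. The TATA box letters TATAAA occurred in 6 of the 42 collagen promoters (14.3%, beside 9.71% of all). On the strand of the gene they lay from 40 to 16 bases before the 5′ end in COL6A2 and COL10A1. These are 4.76% of the 42, beside 3.94% of all. COL6A6 had the letters in that stretch on the opposite strand. The CCAAT box letters CCAAT occurred in 12 (28.6%, beside 36.1%), including COL4A1, COL4A2 and COL4A5. The GC box letters GGGCGG occurred in 27 (64.3%, beside 61.3%), of which 16 were called in all 6 libraries and 8 in none. Of all 42 collagen genes 22 were called in all 6 and 15 in none. The calls were not split by GC box over all promoters. The telomeric repeat unit TTAGGG, which ZBTB48 binds in tandem arrays, occurred in 6 (14.3%, beside 8.54%), namely COL4A6, COL6A5, COL6A6, COL7A1, COL11A1 and COL11A2. A match of 6 letters is a description and no site.

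In the sequences shown above, the COL4A1-COL4A2 interval held 1 CCAAT and 1 GC box and the COL4A4-COL4A3 interval held 2 GC boxes. The COL4A6-COL4A5 stretch held CCAAT letters on each strand and no GC box, and had 51.2% G and C against 78.0% and 65.9% in the other intervals. The upstream COL18A1 promoter held 6 GC boxes and was 90.0% G and C.

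The genes that make and handle collagen were marked more uniformly than the collagen genes, by count. All 17 genes for modifying and folding enzymes, among them the prolyl hydroxylase genes, the PLOD lysyl hydroxylase genes and SERPINH1, the collagen chaperone, were called in all 6 libraries, with every WT above every KO library at 8. Of 11 processing and cross-linking genes, 10 were called in all 6, with 3 separated in that way, and ADAMTS14, a procollagen N-propeptidase, lacked a call in WT replicate 3. Of 9 collagen receptor genes 6 were called in all 6, with 3 separated, ITGA10 and LAIR1 in none, and GP6, the platelet receptor, in WT replicates 2 and 3 and KO replicates 1 and 2. None of these genes lay above in every KO library. The lists were chosen with earlier results of these data known, and the shares stand beside the 65.1% and 50.8% of all promoters given above.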

How the data were processed

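Peak lists of H3K4me3 ChIP-seq from 6 U2OS clones were used, and the 2 WT inputs were not. As the methods of the study describe, the authors trimmed reads (trimmomatic), aligned them to GRCh38 (Bowtie2 2.3.5.1), dropped multimapping reads and duplicates, and made a broad peak list for each library with MACS2 2.1.1.2. Whether an input was used for a list is not given in the sources used here. The deposited lists give each peak's position, a display score, which was not used, the fold enrichment ratio over local background, and −log10 p and −log10 q. In these deposited lists the ratio and the −log10 values are averages over a broad peak. They were used only to rank peaks within a list or to filter them, with the same cutoff in every list. The lists hold no read counts, so depth is unknown and no counting interval is given.

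Genes and 5′ ends were taken from GENCODE release 44. Overlapping peaks were merged and covered base pairs were counted with Python 3.11.15, numpy 2.4.6 and pandas 2.3.3, checked on simulated peak lists. Covered length was compared by a two-sided exact permutation test over the 20 assignments of 3 WT and 3 KO libraries, with Benjamini-Hochberg adjustment over the 14422 promoters with any coverage, 30 collagen genes among them. Figures were drawn with matplotlib 3.10.9.

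Values per library are given for the type IV genes, genes whose call differed between libraries, the 6 largest and 3 smallest differences among the remaining genes called in all 6, and the 4 most widely covered. Other genes were chosen after their values were seen, and the text says so or gives only their calls. The members, classes and lists were chosen with earlier results of these data known. No p-value is given for a list. The lists of clones share at most 2 identical peaks. Alternatives covered the peak threshold, list length, overlap, windows, 5′ ends, scaling, replicate block and single libraries left out. Some promoter sequences are not reported here.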

Additional observations from a re-analysis of the deposited data

How the results depend on the processing

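Over 20 single genes and the 13 alternatives that can change a covered length, 235 of 260 WT to KO differences kept their direction, 7 became 0 (at COL6A3 and COL24A1) and 18 reversed. The 500 bp overlap and the replicate block leave these differences as they are. The limits are that covered length measures spread and not strength, that depth is unknown, that WT replicates 1 and 2 differ from the other 4 lists in width and enrichment, and that 3 clones against 3 cannot pass 0.05. The cause of the changes below was not tested.

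The WT minus KO difference in promoters called, 1.33, became 3 with peaks of at least 4-fold enrichment, 0.667 with at least 500 bp of overlap, 0.333 with the windows exchanged and -0.333 with the 5′ end of any transcript. It was 1.17 to 1.67 with 1 library left out. The difference in median covered length, 294 bp, became 939 bp with at least 4-fold enrichment and -272 bp after scaling, and 187 to 412 bp with 1 library left out. The 4-fold cutoff fell unequally on the lists. Median enrichment was 13.4 and 14.0 in WT replicates 1 and 2 and 4.19 to 4.65 in WT replicate 3 and the KO libraries. With this cutoff the KO mean of the median covered length went from 1156 to 90.3 bp and the WT mean from 1451 to 1029 bp. The count with every WT above every KO library, 8, became 5 at 4-fold (31.7% of all promoters), 4 with windows exchanged (38.7%) and 0 after scaling (5.53%). It was 11 with WT replicate 3 alone (54.4%) and 8 to 21 with 1 library left out (51.5% to 90.9%). The count lying above in KO, 0, became 2 after scaling (12.9% of all promoters) and 1 with WT replicate 3 alone (2.53%). It stayed 0 with 1 library left out (0.216% to 0.363%). Promoters called in every WT and no KO library, 0, became 1 with WT replicate 3 alone (COL6A3). They were 0 to 1 with 1 library left out (COL18A1 without KO replicate 1). When 2 of 3 libraries sufficed they were 2, and 1 was called in KO and not in WT. These counts are not given over all promoters.

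The type IV pairs reversed at COL4A1-COL4A2 with WT replicate 3 alone (-22.3 bp) and after scaling at COL4A4-COL4A3 (-50.7 bp) and COL4A6-COL4A5 (-101 bp). With 1 library left out they ranged from 1388 to 3031 bp, 666 to 1270 bp and 454 to 986 bp. Single genes reversed as follows. COL16A1, at -143 bp, was 1121 bp with WT replicate 3 alone, 173 bp without WT replicate 1 or 2 and 154 bp without KO replicate 2, within a range of -775 to 173 bp with 1 library left out. With WT replicate 3 alone COL22A1 was -499 bp and COL4A1 and COL4A2 -22.3 bp. COL15A1 was -25.7 bp without WT replicate 2, the lowest of -25.7 to 241 bp with 1 library left out. After scaling COL13A1 was -144, COL14A1 -88.0, COL15A1 -391, COL22A1 -90.8, COL4A3 and COL4A4 -50.7, COL4A5 -101, COL4A6 -255, COL5A1 -399 and COL5A3 -245 bp.

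Replicate numbers name separate clones and did not pair the libraries: deviations of same-numbered WT and KO libraries from their group means correlated at -0.00952, 0.0171 and 0.0932 over promoters, and not every library correlated best with its own number. With the replicate block, WT lay above KO in every pair at 17 collagen promoters (85.6% of all promoters), the smallest p was 0.25, and 0 single promoters passed the threshold.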
